A study of Mus musculus with 6 samples.

Results

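The transcripts of 10 chemokines were followed in 6 mouse livers: Ccl2, Ccl5, Ccl6, Ccl9, Cxcl1, Cxcl9, Cxcl10, Cxcl13, Cxcl14 and Cxcl16. They were taken by symbol from a table of 22173 symbols, where all 10 were listed, and all 10 were among the 10681 genes that passed the filter on low values (0.5 FPKM or more in 3 or more libraries). FPKM is the number of sequenced fragments of a gene scaled to its length in kilobases and to the size of the library. The study asked how DDK, a compound that its title calls a limonoid, acts in metabolic dysfunction-associated steatohepatitis, in which a fatty liver becomes inflamed and scarred. Wild-type mice were put on a diet abbreviated HFHC at 6 weeks of age and kept on it for 16 weeks. In the final 4 weeks 3 of them received DDK and 3 received vehicle. Every animal was on the diet, so both groups share it and no liver of another diet was analysed here. Each library came from 1 animal, and the sources used here do not give strain, sex, dose or route.

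Chemokines are small secreted proteins that bind to sugars on vessel walls and in tissue and steer leukocytes through G protein-coupled receptors. Those with adjacent first cysteines are named Ccl and those with 1 residue between them Cxcl. In fatty and inflamed liver they are made by macrophages, endothelial cells, stellate cells and stressed hepatocytes. They are known for drawing monocytes (Ccl2), neutrophils (Cxcl1) and T and NK cells (Ccl5, Cxcl9, Cxcl10, Cxcl16).

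In FPKM as deposited, the 10 chemokine transcripts summed lower in DDK-treated livers than in vehicle livers and had another make-up. Ccl2, Ccl6, Cxcl10, Cxcl14 and Cxcl16 fell, Cxcl1 rose, and Ccl5, Ccl9, Cxcl9 and Cxcl13 did not pass the test. The test was limma on log2(FPKM + 1) with an adjusted p under 0.05 over all genes. By that rule 40.5% of all genes tested were called, made up of 30.3% of all called lower and 10.2% of all called higher in DDK. The 5 lower and 1 higher of 10 are to be read against those shares, and the share that rose is close to its background. The median log2 fold change of the 10 was -0.71, and that of all genes tested was -0.23. With median-ratio scaling the latter was -0.01 and with rescaling to TPM -0.45. In the plot of FPKM by liver the groups did not overlap for 7 of the 10 genes, 5 lower and 2 higher, where 53.3% of all genes tested did not overlap, 39.2% lower and 14.1% higher.

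**Figure D1:**
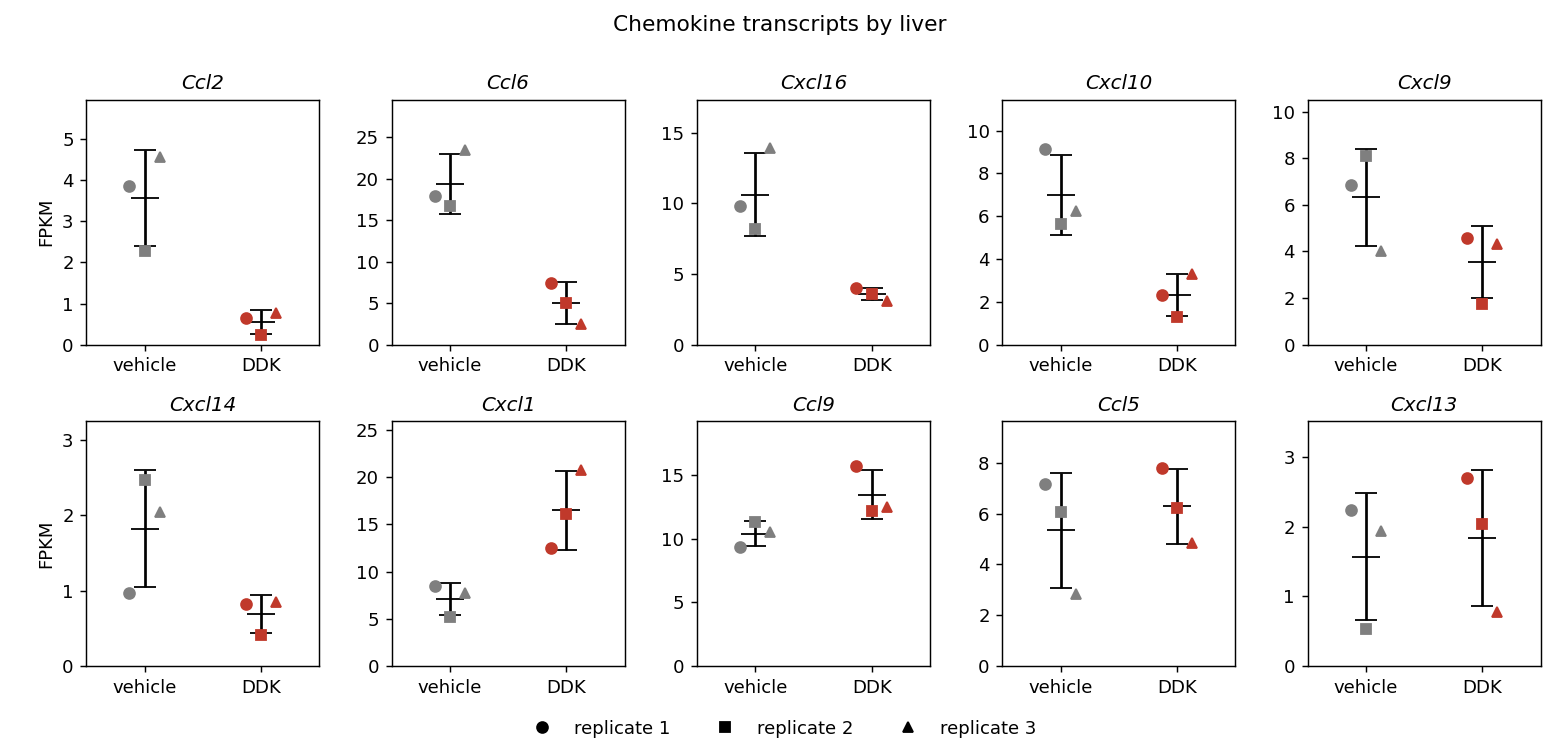
FPKM (y axis, linear, from 0) of each of the 10 chemokines in each liver, vehicle in grey and DDK in red, with the marker shape giving the replicate number, the wide bar the group mean and the whiskers ± 1 SD (n = 3). Ccl2, Ccl6, Cxcl16, Cxcl10 and Cxcl14 stand lower in all DDK livers, Cxcl1 and Ccl9 stand higher, and the groups overlap for Cxcl9, Ccl5 and Cxcl13.

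Libraries held 26576291 to 30237490 fragments in DDK and 33963898 to 36105315 in vehicle, as recovered from the FPKM values. The 10 chemokines were covered by 5 to 1362 fragments per library. At a length of 1000 bp the floor of 3 fragments lay between 0.0831 and 0.113 FPKM. Albumin, Alb, stood at an FPKM of 17300 to 37800, as liver tissue has it. On the first principal component, which held 75% of the variance, the DDK livers scored -36.4 to -23.6, vehicle replicate 1 scored 14.1, and the remaining vehicle livers scored 36.2 and 40.0. All values are of whole liver, in which fewer cells of a type and less RNA per cell cannot be told apart.

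The monocyte attractant Ccl2, the ligand of Ccr2, had the largest fold difference in FPKM of the 10. Its FPKM was 0.647, 0.233 and 0.780 in DDK replicates 1 to 3 and 3.85, 2.29 and 4.57 in vehicle replicates 1 to 3. Every DDK liver lay under an FPKM of 1 and every vehicle liver above 2, so the groups were far apart. Those values rest on 15, 5 and 19 fragments in DDK and 112, 63 and 125 in vehicle. For the lowest liver, DDK replicate 2, the exact Poisson 95% interval was 0.0758 to 0.545, which covers counting error only. Mean FPKM fell 6.45-fold, from 3.57 ± 1.17 to 0.553 ± 0.285 (SD, n = 3). The log2 fold change was -1.54 ± 0.21 (SE, adjusted p = 0.00134), a scale on which the added 1 understates changes of a gene this low. On the recovered fragments limma's voom gave -2.72 ± 0.58 (adjusted p = 0.0065). Ccl2 lies on chromosome 11 (82035571 to 82037453, plus strand, GRCm38) and is protein coding.

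Ccl6 and Ccl9, neighbours in the chemokine cluster of chromosome 11 and both ligands of Ccr1, did not behave alike, as Ccl6 fell and Ccl9 did not pass the test. Ccl6, a chemokine of myeloid cells that is found in rodents, was the most abundant of the 10 in vehicle livers. It stood at an FPKM of 7.48, 5.03 and 2.46 in DDK and 17.9, 16.7 and 23.5 in vehicle replicates 1 to 3. No DDK liver reached the lowest vehicle liver. Mean FPKM was 19.4 ± 3.63 in vehicle and 4.99 ± 2.51 in DDK, a 3.89-fold fall (log2 fold change -1.85 ± 0.28, adjusted p = 0.00185). Ccl9, which also attracts myeloid cells, stood at 15.7, 12.2 and 12.5 in DDK and 9.35, 11.3 and 10.5 in vehicle. Its DDK livers were all above its vehicle livers by a small margin. The log2 fold change was 0.34 ± 0.15 (95% interval 0.02 to 0.67, adjusted p = 0.0850), which did not pass. It did pass in 3 of 16 alternatives: median-ratio scaling (0.61, adjusted p = 0.00853), quantile normalization (0.59, 0.0104) and gene length correction (0.61, 0.00814). The difference was smaller with rescaling to TPM (0.13, adjusted p = 0.537) and without DDK replicate 1 (0.23, 0.308).

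The ratio of Ccl6 to Ccl9, which no scaling of a library can change, was computed after the values had been seen. It was 0.475, 0.414 and 0.196 in DDK and 1.92, 1.48 and 2.24 in vehicle livers, so Ccl6 exceeded Ccl9 in every vehicle liver and in no DDK liver. The difference in its log2 was -2.45 (exact two-sided permutation test, p = 0.1, the smallest that 3 against 3 can give). It was 1 of 4 such ratios computed, and no adjusted value can fall under that p. Ccl9 (83572919 to 83578636) and Ccl6 (83587882 to 83593087) both lie on the minus strand, with 9.2 kb between them. Their upstream sequences are shown because the ratio of the neighbours differed so. The lines give the 250 bases before the start from RefSeq (GRCm38.p6), 5′ to 3′ in the direction of the gene, at chr11:83593088-83593337 and chr11:83578637-83578886, both on the minus strand. Capitals mark a match to the kappa B consensus, the site of NF-κB.
Ccl6: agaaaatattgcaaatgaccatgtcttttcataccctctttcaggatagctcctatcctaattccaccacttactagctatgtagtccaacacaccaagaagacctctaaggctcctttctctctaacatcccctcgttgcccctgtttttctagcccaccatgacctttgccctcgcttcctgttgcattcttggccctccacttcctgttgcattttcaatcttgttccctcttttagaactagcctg
Ccl9: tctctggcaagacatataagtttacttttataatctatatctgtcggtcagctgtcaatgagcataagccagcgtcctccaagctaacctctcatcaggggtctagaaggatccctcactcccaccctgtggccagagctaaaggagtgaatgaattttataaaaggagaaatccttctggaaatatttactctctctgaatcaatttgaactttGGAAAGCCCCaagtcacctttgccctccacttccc
The Ccl9 window holds 1 match, on the strand opposite to the gene, and the Ccl6 window holds none of the motifs searched.

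Cxcl1, the main neutrophil attractant of mice and a ligand of Cxcr2, was the 1 chemokine of the 10 that rose. Its FPKM was 12.5, 16.1 and 20.8 in DDK replicates 1 to 3 and 8.44, 5.15 and 7.71 in vehicle replicates 1 to 3. The lowest DDK liver stood above the highest vehicle liver. The mean rose 2.32-fold, from 7.10 ± 1.73 to 16.5 ± 4.19 (log2 fold change 1.10 ± 0.21, adjusted p = 0.00429). Other ligands of Cxcr2 were low. Cxcl2 stood at 0, 0.208 and 0.0611 in DDK and 0.409, 0.243 and 1.01 in vehicle, and Cxcl5 at 0.114 to 0.168 and 0.0707 to 0.151. Ppbp stood at 0.0305 to 0.450 in DDK and 0.153 to 0.757 in vehicle. None of these passed the filter, and Cxcl3 was listed at 0 in all 6 livers. Cxcr2 itself stood at 0 to 0.0723 in DDK and 0.0938 to 0.142 in vehicle. Of 6 neutrophil markers, 2 passed the filter. S100a9 fell (-1.01, adjusted p = 0.00450) and S100a8 stood at -0.91 ± 0.47 (adjusted p = 0.140). Ly6g, Camp and Mpo were at 0 in all DDK livers and low in vehicle (0 to 0.156, 0 to 0.831 and 0.0231 to 0.253), with overlap for Ly6g and Camp. The summed FPKM of the 6 markers was 2.32 to 7.98 in DDK and 11.1 to 13.6 in vehicle, opposite in direction to Cxcl1. Most of that sum came from S100a8 and S100a9 in every liver. The groups overlapped for S100a8, which stood at 0.253 to 5.06 in DDK and 4.73 to 5.37 in vehicle.

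Cxcl10 and Cxcl9, both induced by interferon gamma and both ligands of Cxcr3 on T and NK cells, differed in their calls, as Cxcl10 fell and Cxcl9 did not pass. Cxcl10 stood at 2.34, 1.30 and 3.30 in DDK and 9.13, 5.63 and 6.26 in vehicle, with no overlap. This was a 3.03-fold fall of the mean, with a log2 fold change of -1.30 ± 0.24 (95% interval -1.84 to -0.75, adjusted p = 0.00375). Cxcl9 stood at 4.58, 1.75 and 4.30 in DDK and 6.84, 8.10 and 4.00 in vehicle, and vehicle replicate 3 lay under DDK replicates 1 and 3. Its log2 fold change was -0.71 ± 0.30 (95% interval -1.37 to -0.05, adjusted p = 0.0793). It passed in 2 of 16 alternatives, without vehicle replicate 3 (-0.96, adjusted p = 0.0473) and after rescaling to TPM (-0.99, 0.0290). The fall was smaller with median-ratio scaling (-0.48, adjusted p = 0.243), with quantile normalization (-0.41, 0.33) and without DDK replicate 2 (-0.38, 0.284). The ratio of Cxcl10 to Cxcl9 was 0.510, 0.743 and 0.768 in DDK and 1.34, 0.696 and 1.56 in vehicle (exact two-sided permutation test, p = 0.3), so the groups overlapped in it. The genes lie 18.6 kb apart on chromosome 5, both on the minus strand, Cxcl9 at 92321347 to 92328079 and Cxcl10 at 92346638 to 92348889. Cxcl10 shares 133 exon bases with Art3 on the other strand, whose FPKM was 0.320 to 0.966, and the library kit does not mark strand.

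The upstream sequences of Cxcl1 (chr5:90890995-90891244, plus strand) and Cxcl10 (chr5:92348890-92349139, minus strand) are shown because one gene rose, the other fell, and both hold matches to the kappa B consensus. Build, length and direction are as above. Capitals mark kappa B matches and, in Cxcl10, also the core of the interferon-stimulated response element.
Cxcl1: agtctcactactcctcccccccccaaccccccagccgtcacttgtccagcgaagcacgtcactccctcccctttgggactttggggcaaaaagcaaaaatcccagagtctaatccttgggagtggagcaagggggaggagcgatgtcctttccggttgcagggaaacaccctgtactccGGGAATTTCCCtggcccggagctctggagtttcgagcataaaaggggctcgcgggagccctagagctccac
Cxcl10: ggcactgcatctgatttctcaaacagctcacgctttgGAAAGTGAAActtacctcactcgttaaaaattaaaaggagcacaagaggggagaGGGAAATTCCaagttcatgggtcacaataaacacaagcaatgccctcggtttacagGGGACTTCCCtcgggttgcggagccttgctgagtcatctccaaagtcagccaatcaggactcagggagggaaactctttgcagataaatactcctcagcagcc
In Cxcl1 the capitals hold 2 overlapping kappa B matches on opposite strands, the first starting at base -71 from the start site. In Cxcl10 kappa B matches start at -159 and -103, and the response element core starts at -213. Windows of 300 bases (250 before and 50 after the start) were found for 7 of the 10 genes and searched on both strands. Of all 32817 such windows, 4.5% held a kappa B match, 3.43% the response element core and 8.29% the gamma-activated sequence TTCNNNGAA. A kappa B match was thus found for Cxcl1, Cxcl10 and Ccl9, and the response element core for Cxcl10 and Cxcl14. TTCNNNGAA was found for Cxcl14. Cxcl9, Cxcl13 and Ccl6 held no match to these motifs. A match is a description of the window, not a bound site, and of the genes with a kappa B match Cxcl1 rose, Cxcl10 fell and Ccl9 did not pass.

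Cxcl16 is made as a membrane protein that holds Cxcr6-bearing T and NKT cells, scavenges oxidized lipid and is released by cleavage. It stood at an FPKM of 3.98, 3.58 and 3.12 in DDK and 9.79, 8.19 and 13.9 in vehicle. The DDK livers were close to each other and all were under the lowest vehicle liver. The mean fell 2.99-fold, being 10.6 ± 2.97 in vehicle and 3.56 ± 0.430 in DDK (log2 fold change -1.33 ± 0.19, adjusted p = 0.00145). Adam10, which sheds it, fell by 0.53 on the log2 scale (adjusted p = 0.0483), and Adam17 stood at -0.35 ± 0.16 (adjusted p = 0.0967). Cxcl16 lies on chromosome 11 (70453983 to 70459984, minus strand) and shares 552 exon bases with Zmynd15 on the other strand, whose FPKM was 0.303 to 1.04.

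Cxcl14, a chemokine of epithelial and stromal cells whose receptor is less settled, was among the 3 lowest of the 10 in both groups. It stood at 0.819, 0.405 and 0.847 in DDK and 0.964, 2.46 and 2.04 in vehicle, from 21 to 50 and 68 to 164 fragments. Vehicle replicate 1 lay just above the highest DDK liver and far from the other vehicle livers. Its log2 fold change was -0.71 ± 0.21 (adjusted p = 0.0248). That call was lost without DDK replicate 2 (adjusted p = 0.103), vehicle replicate 2 (0.0831) or vehicle replicate 3 (0.0881), without a filter (0.0834), with quantile normalization (0.0755), by voom (0.0559) and with gene length correction (0.0649).

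Ccl5 and Cxcl13, chemokines of lymphocytes, did not pass. Ccl5, made by T and NK cells and a ligand of Ccr1, stood at 7.78, 6.22 and 4.85 in DDK and 7.18, 6.05 and 2.82 in vehicle. The groups overlapped, and the log2 fold change was 0.25 ± 0.27 (95% interval -0.36 to 0.86, adjusted p = 0.478). It turned to -0.08 without vehicle replicate 3 and to -0.38 with gene length correction. Cxcl13, the B cell attractant that binds Cxcr5, stood at 2.69, 2.04 and 0.768 in DDK and 2.24, 0.529 and 1.93 in vehicle. Both groups had high and low livers, and the log2 fold change was 0.15 ± 0.32 (95% interval -0.56 to 0.87, adjusted p = 0.723). Intervals this wide leave room for a change in either direction, and the sign of Cxcl13 turned without DDK replicate 1 (-0.07) or vehicle replicate 2 (-0.19).

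The pool of the 10 transcripts therefore had another make-up in each group. Their summed FPKM was 58.5, 48.8 and 53.8 in DDK and 75.7, 66.5 and 77.3 in vehicle replicates 1 to 3. The median-ratio size factors were 0.922, 0.860 and 0.927 in DDK and 1.01, 1.13 and 1.18 in vehicle. Scaling by them narrows the gap between the sums, so the lower sum in DDK depends on the scaling. Ccl6 made up 12.8%, 10.3% and 4.58% of it in DDK and 23.7%, 25.2% and 30.4% in vehicle. Cxcl1 made up 21.3%, 33.0% and 38.7% in DDK and 11.1%, 7.75% and 9.97% in vehicle. By mean FPKM, which is per length, the order in vehicle was Ccl6, Cxcl16, Ccl9, Cxcl1, Cxcl10, Cxcl9, Ccl5, Ccl2, Cxcl14 and Cxcl13. Of neighbours in that order, only Ccl6 and Cxcl16, and Ccl9 and Cxcl1, had ranges over livers that did not overlap. In DDK the order was Cxcl1, Ccl9, Ccl5, Ccl6, Cxcl16, Cxcl9, Cxcl10, Cxcl13, Cxcl14 and Ccl2, and of neighbours only Ccl9 and Ccl5 did not overlap. Cxcl1 and Cxcl16 changed places within every liver, their ratio being 3.13, 4.50 and 6.66 in DDK and 0.862, 0.628 and 0.553 in vehicle (exact two-sided permutation test, p = 0.1, the smallest possible, on a ratio chosen after the values were seen).

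**Figure D2:**
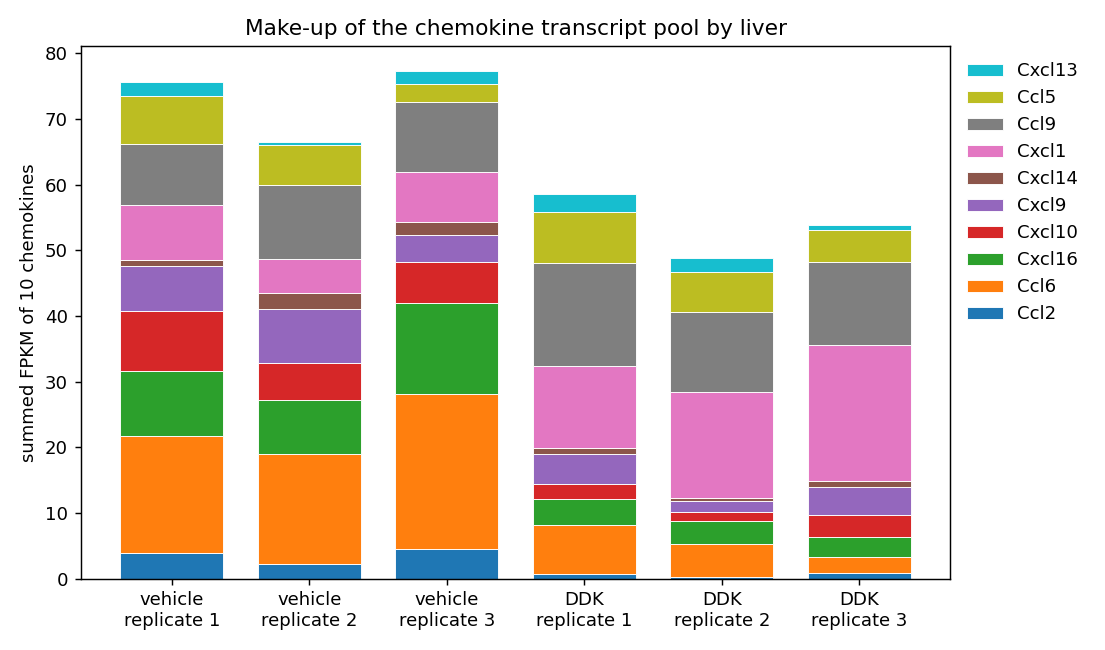
Stacked bars of FPKM (y axis, linear, from 0) of the 10 chemokines in each of the 6 livers on the x axis, 1 colour per gene. The bars reach 66.5 to 77.3 in vehicle and 48.8 to 58.5 in DDK, with Ccl6 (orange) the largest segment in vehicle and Cxcl1 (pink) or Ccl9 (grey) the largest in DDK.

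Receptors for these ligands were low in whole liver. Among those that passed the filter were Ccr2, Cx3cr1 and Cxcr4, which fell. Ccr2, the receptor of Ccl2, stood at 0.449, 0.167 and 0.0630 in DDK and 0.832, 1.90 and 1.16 in vehicle (log2 fold change -0.89 ± 0.18, adjusted p = 0.00572). Cx3cr1, the fractalkine receptor (-0.87, adjusted p = 0.00268), and Cxcr4, the receptor of Cxcl12 (-0.50, 0.0114), fell too. Ccr2, Cx3cr1 and Cxcr4 passed the filter through their vehicle livers alone, so that they fell supports nothing further. Ccr1, Cxcr2, Cxcr3, Cxcr5 and Cxcr6 were under the filter. Ccr1 stood at 0.0123 to 0.0467 in DDK and 0.145 to 0.284 in vehicle. Cxcr3 stood at 0.123 to 0.778 and 0.0915 to 0.327, Cxcr5 at 0.0627 to 0.330 and 0.0735 to 0.335, and Cxcr6 at 0.105 to 1.05 and 0.278 to 0.467, and the groups overlapped for these 3. Of 5 atypical receptors, which take up chemokines without signalling to migration, 3 passed the filter. Ackr4 (-1.03, adjusted p = 0.00447) and Ackr2 (-0.38, 0.0263) fell, although Ackr2 too passed the filter through vehicle livers alone, and Ccrl2 stood at -0.06 ± 0.17.

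**Figure D3:**
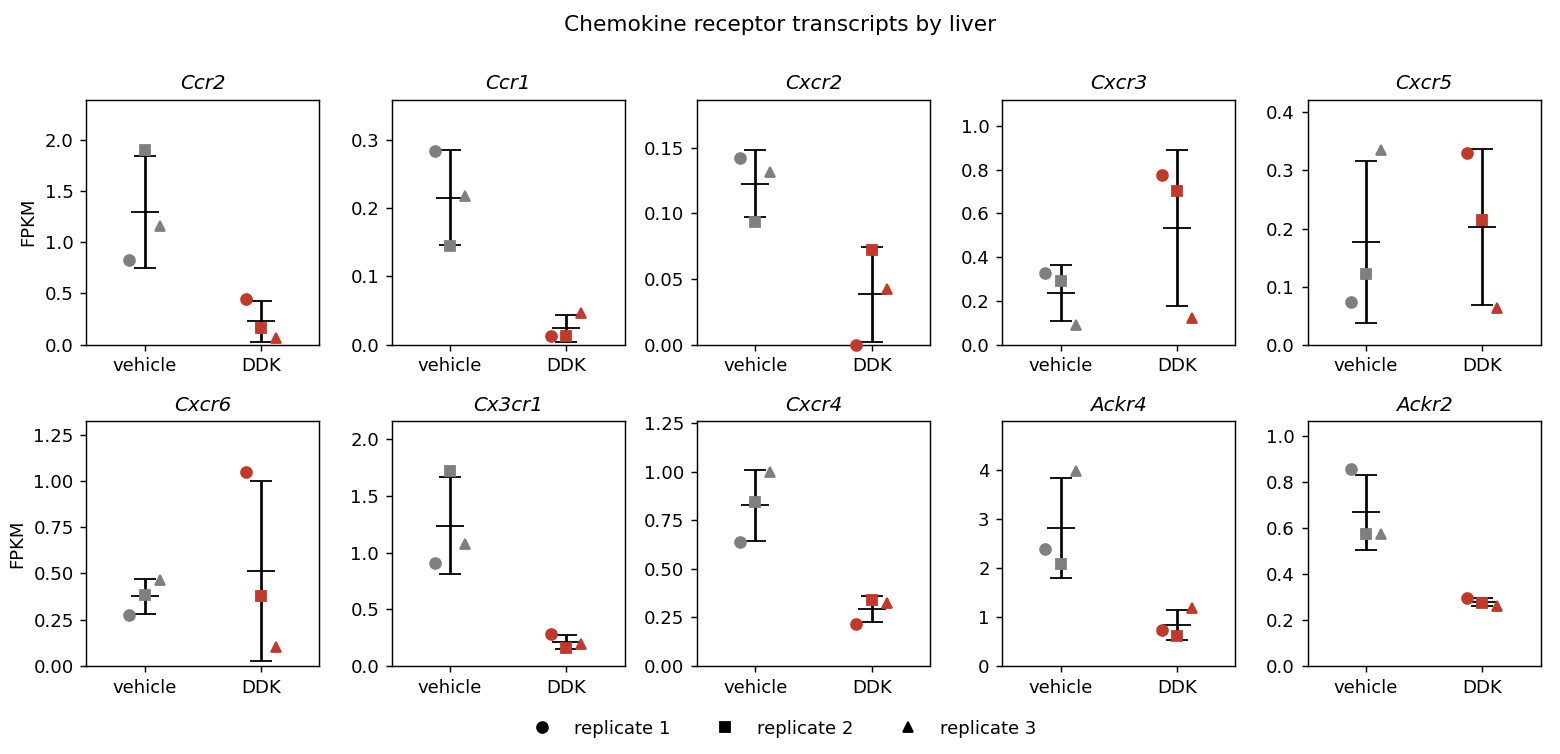
FPKM (y axis, linear, from 0, scale differs by panel) of 8 chemokine receptors and the atypical receptors Ackr4 and Ackr2 in each liver, vehicle in grey and DDK in red, with the marker shape giving the replicate number, the wide bar the mean and the whiskers ± 1 SD (n = 3). Ccr2, Ccr1, Cxcr2, Cx3cr1, Cxcr4, Ackr4 and Ackr2 stand lower in all DDK livers, and the groups overlap for Cxcr3, Cxcr5 and Cxcr6. Of all genes tested, 39.2% were lower without overlap. Ccr1, Cxcr2, Cxcr3, Cxcr5 and Cxcr6 were under the filter. Ccr2, Cx3cr1, Cxcr4 and Ackr2 passed it through vehicle livers alone.

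Among the other 26 chemokine ligands listed, 8 passed the filter. Ccl4, a chemokine of macrophages and lymphocytes, fell, its mean FPKM being 1.32 ± 0.233 in vehicle and 0.409 ± 0.113 in DDK (log2 fold change -0.72, adjusted p = 0.00340). Ccl27a, which has near-identical copies in the mouse genome, rose from 6.05 ± 2.71 to 10.6 ± 2.05 (0.77, adjusted p = 0.0342) although its groups overlapped. That call held in 10 of 16 alternatives. It was lost without a filter (adjusted p = 0.105), with TPM (0.0635), and with any of 4 livers left out, which were replicates 1 (0.102) and 2 (0.115) of DDK and replicates 2 (0.111) and 3 (0.115) of vehicle. Cxcl12, the most abundant ligand measured, had a mean FPKM of 34.2 ± 2.50 in DDK livers and 38.8 ± 1.31 in vehicle livers (log2 fold change -0.18 ± 0.12, adjusted p = 0.243). Ccl21a, Ccl24, Ccl25, Pf4 and Xcl1 did not pass the test. The median of the 8 was 0.34, against -0.23 for all genes tested.

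Among genes of the pathways that induce chemokines, some fell and others did not pass. Of 11 genes of TNF, IL-1 and NF-κB signalling 10 passed the filter and 6 fell, where 30.3% of all genes tested fell. Nfkb1, an NF-κB subunit, fell by 1.02 on the log2 scale (adjusted p = 0.00230), and Tnfaip3, an NF-κB target that restrains the pathway, by 1.14 (0.00195). Tnfrsf1b, Tnfrsf1a, Nfkbia and Relb fell too. Tnfaip3 and Relb passed the filter through vehicle livers alone, so the filter fixed their direction and their fall is no support. Il1b stood at -0.06 ± 0.27. Of interferon gamma signalling, which induces Cxcl9 and Cxcl10, the receptor chains Ifngr2 and Ifngr1 fell by 1.23 (adjusted p = 0.00154) and 0.63 (0.0152), and Jak1 by 0.68 (0.00950). Ifng itself was at an FPKM of 0 to 0.144 in all 6 livers and Irf1 stood at 0.09 ± 0.17. Lymphotoxin genes, which induce Cxcl13, did not pass, with Ltb at 0.16 ± 0.25 and Ltbr at 0.03 ± 0.13. Of 5 proteases that cut chemokines, Mmp12 (-2.35, adjusted p = 0.000432) and Dpp4 (-0.77, 0.00344), which trims Cxcl10, fell beside Adam10. With median-ratio scaling 2 of the 5 fell rather than 3. Mmp12 was under the filter in every DDK liver (0.0599 to 0.0964, against 2.83 to 7.14 in vehicle). In all, 37 of these 75 other listed genes passed the filter, of which 20 fell and 1 rose, and under median-ratio scaling 15 fell and 2 rose. Of the 20, 7 were under the filter in every DDK liver, so the filter fixed their direction and the count of 20 is no support.

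**Figure D4:**
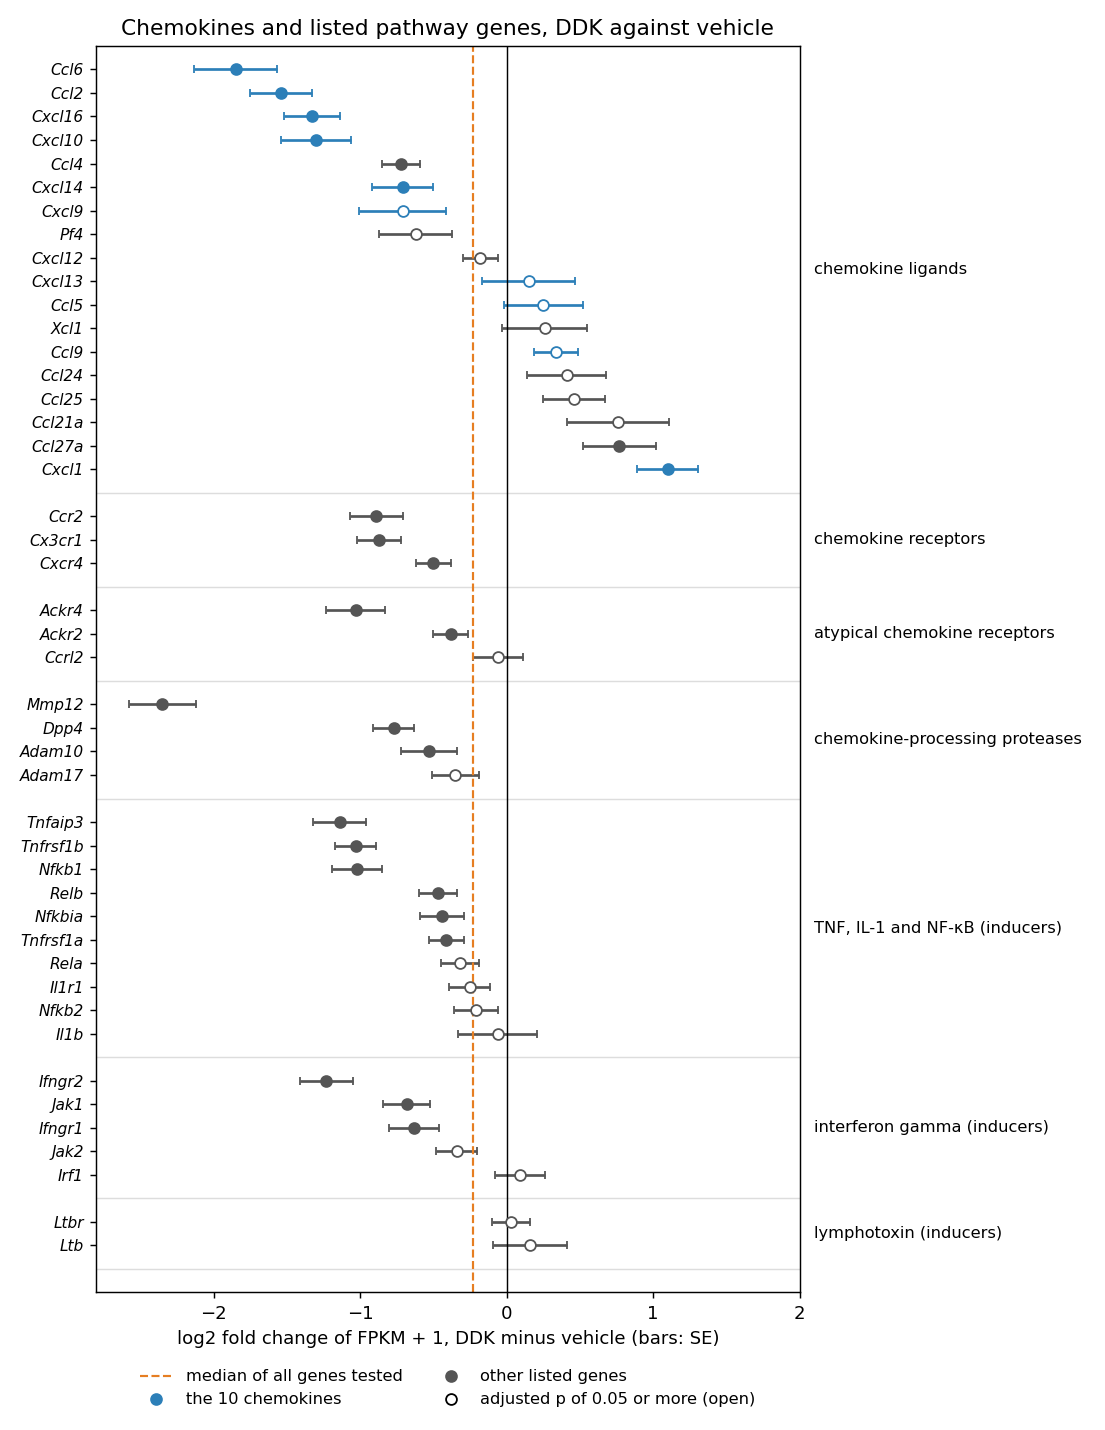
Log2 fold change of FPKM + 1, DDK minus vehicle (x axis), with its SE as bars, for the 10 chemokines (blue) and other listed genes reported here (grey) that passed the filter, grouped by list on the y axis. Filled points have an adjusted p under 0.05 and the dashed line is the median of all genes tested (-0.23). Ligands spread from -1.85 (Ccl6) to 1.10 (Cxcl1). The receptors Ccr2, Cx3cr1 and Cxcr4 lie left of the line, but they passed the filter through vehicle livers alone, which fixed their direction.

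Markers of the cells that make or follow chemokines moved beside these results, and their part in them was not tested. Each count of calls below is to be read against the 30.3% of all genes tested called lower and the 10.2% called higher. Among 12 markers of macrophages and Kupffer cells, 7 were called lower and 0 higher, and their summed FPKM was 477, 317 and 189 in DDK replicates 1 to 3 and 748, 618 and 1030 in vehicle replicates 1 to 3. Within each group Ccl6 and Cxcl16 followed that order of livers, from DDK replicate 1 down to 3 and from vehicle replicate 3 down to 2. No other of the 10 chemokines did so in both groups. In DDK alone, Ccl5, Cxcl13 and the summed T and NK cell markers had the same order. With 3 livers per group an order matches easily, and no match of orders was tested. Among the resident Kupffer cell markers of that list, Cd5l fell (-1.33 ± 0.30, adjusted p = 0.00784). Vsig4 (-0.61 ± 0.27, adjusted p = 0.0992), Clec4f (-0.35 ± 0.30, 0.363), Timd4 (-0.01 ± 0.29, 0.980) and Marco (-0.32 ± 0.52, 0.633) did not pass. Of 5 monocyte markers 3 passed the filter and 2 fell, Ccr2, with the limit given above, and Ly6c2. Of 10 T and NK cell markers listed, 4 passed the filter and none was called, and at an unadjusted p under 0.05 none was either. Their summed FPKM was 8.30, 4.08 and 2.68 in DDK and 5.36, 4.49 and 1.91 in vehicle, the same order of livers within each group as that of Ccl5. Of 4 B cell markers listed 2 passed the filter and neither was called. Of 6 dendritic cell markers 2 passed the filter and 1 fell, Itgax, which did so through vehicle livers alone (0.879 to 1.36, against 0.0687 to 0.174 in DDK). Of 7 endothelial markers 4 fell, of 8 stellate cell markers 5 fell, and of 5 cholangiocyte markers 1 rose, Krt7. Of 7 hepatocyte markers Alb and Ttr rose and Tat fell.

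Outside the 10 chemokines, the 3 patterns most like each chemokine were found by the root mean square difference over the 6 livers of log2(FPKM + 1), each gene centred on its mean, among 9227 genes with a mean FPKM of at least 1. For Ccl6 they were Ctss (0.117), Ear2 (0.163) and Hcls1 (0.175). For Ccl2 they were Cd207 (0.117), Lgals3bp (0.205) and Plvap (0.220), and for Cxcl16 Oasl1 (0.109), Ms4a6c (0.127) and Igfbp7 (0.132). Cxcl10 was most like Rnaset2b (0.105), Hspb1 (0.135) and Tmem86a (0.178). Cxcl1 was most like Tm6sf2 (0.108), Wsb1 (0.142) and Gstt3 (0.161), whose log2 fold changes were 1.01, 1.19 and 0.97. Ccl5 was most like another chemokine, Ccl24 (0.150), followed by Gba2 (0.166) and Cdk10 (0.184). Cxcl9 was nearest to Wfdc1 (0.152) and Cxcl13 to Dnase1l3 (0.138). The smallest differences were those of Cxcl14 (Azin1, 0.043) and Ccl9 (Nmral1, 0.055). The measure is not scaled to a gene's spread, so a gene that varies little can have small differences whatever its pattern. Sizes are therefore not comparable between chemokines. The 6 points share the group difference and the library, so likeness is a description only.

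**Figure D5:**
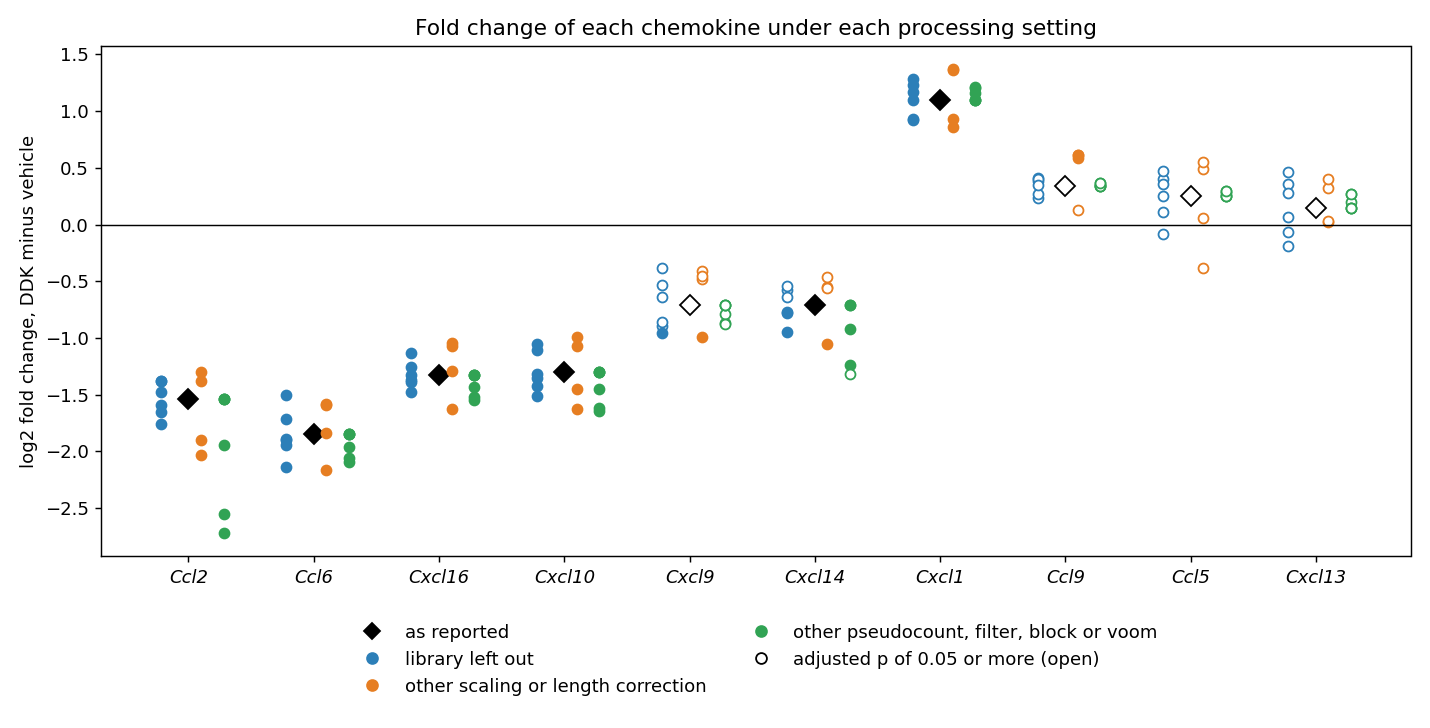
Log2 fold change, DDK minus vehicle (y axis), of each chemokine (x axis) as reported (black diamond) and with a library left out (blue), another scaling or length correction (orange) or another pseudocount, filter, block or voom (green), open where the adjusted p was 0.05 or more. Ccl2, Ccl6, Cxcl16, Cxcl10 and Cxcl1 stay filled and on their side of 0 throughout, while Ccl5 and Cxcl13 cross 0.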

How the data were processed

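Per the file headers the authors deposited 1 table of FPKM per gene symbol and library, and GRCm38 (mm10) is the build named in the submitters' processing notes. Aligner, counting program and annotation are not given in the sources used here. Per the labels' protocols libraries were made from 1.3 µg of total RNA with a NEBNext Ultra kit. The 10 genes, the gene lists and the tests were chosen with earlier results of these data known. Groups and replicates came from sample titles. Values were tested as log2(FPKM + 1) by limma 3.58.1 (R 4.3.3, variance trend, Benjamini-Hochberg over 10681 genes). Named by rule were the 10 chemokines, their receptors, listed genes past the threshold, markers beside a result and the 3 genes most like each chemokine. Other listed genes were named after their values were seen. Whole library totals and gene lengths were found for which 100% of the values above 0 were whole fragments within 0.01. The fit was also run on simulated counts with a fixed spread and a smaller share of changed genes than was called here. That setting differs from these data, so nothing is drawn from it. Alternatives were pseudocounts of 0.1 and 0.5, no filter, a stricter filter (FPKM 1), TPM, quantile normalization, median-ratio scaling, a replicate block, each library left out, voom on fragments and, added after the data were seen, a lowess correction for gene length (span 0.3). Gene positions are from GENCODE M21. Protein sequences were not used here, and some listed genes are not reported here.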

Additional observations from a re-analysis of the deposited data

How the results depend on the processing

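The calls of Ccl2, Ccl6, Cxcl10, Cxcl16 and Cxcl1 and their directions held in all 16 alternatives run for each, with log2 fold changes of -2.72 to -1.30, -2.16 to -1.50, -1.64 to -0.99, -1.63 to -1.04 and 0.86 to 1.37. Cxcl14 kept its call in 8 of 15, since it was not tested with a filter at an FPKM of 1. The number of chemokines that rose became 2, Ccl9 joining Cxcl1, with median-ratio scaling, quantile normalization and gene length correction, and the number that fell stayed between 4 and 6. Signs that turned were those of Ccl5 (-0.38 with gene length correction, -0.08 to 0.47 with a library left out) and of Cxcl13 (-0.19 to 0.46 with a library left out). Of other pathway genes 13 fell with quantile normalization. The number of them that rose was 0 without a filter and with TPM, 2 with median-ratio scaling, quantile normalization, gene length correction and the replicate block, and 0 to 2 with a library left out. Among all genes, 3234 fell and 1093 rose, against 1727 and 1924 with median-ratio scaling, 1743 and 1886 with quantile normalization, 4929 and 631 with TPM and 1844 and 1722 with gene length correction. With a library left out 1738 to 4330 fell and 610 to 1356 rose. The cause of these shifts was not tested. With the replicate number as a block 5 chemokines fell and 1 rose, as without it. Same-numbered livers had correlations of deviations of 0.14, -0.15 and 0.06, and other pairs of livers -0.21 to 0.21. With 3 livers per group these values cannot decide whether the numbers pair the samples. Depth limits Ccl2, Cxcl13 and Cxcl14 most, with 5, 21 and 21 fragments in their lowest livers.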

Other observations

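Of the 26 other chemokine ligands listed, 18 were under the filter, and Cxcl3, Cxcl15 and Cxcl17 were at 0 in all 6 livers. Of the 18, 5 lay lower in every DDK liver than in any vehicle liver (Cxcl2, Cx3cl1, Ccl12, Ccl3 and Ccl7). The remaining 13 overlapped, among them those at 0, which can only overlap. Of all genes tested 39.2% were lower without overlap, but those genes passed the filter and the 18 did not. Cx3cl1, fractalkine, stood at 0.221, 0.132 and 0.231 in DDK and 0.361, 0.642 and 0.880 in vehicle replicates 1 to 3. Ccl12, a Ccr2 ligand near Ccl2, stood at 0, 0 and 0.0617 in DDK and 0.258, 0.273 and 0.494 in vehicle. Ccl3, a ligand of Ccr1, stood at 0.176, 0.286 and 0 in DDK and 0.386, 0.445 and 0.708 in vehicle. Ccl7, another Ccr2 ligand, stood at 0.260, 0 and 0 in DDK and 0.277, 0.329 and 1.76 in vehicle. These genes were picked after their values were seen, rest on few fragments and were not tested. Ccr7, the receptor that leads dendritic cells and T cells to lymph nodes, stood at 0.0381 to 0.184 in DDK and 0.370 to 0.799 in vehicle, also under the filter.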
